A study of Olea europaea with 36 samples.

Results

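Among 4 olive varieties, 100 of the 37449 contigs on the array were taken as high in Arbosana alone, and they were followed through the other groups of the study. Expression was measured on NimbleGen arrays of 60-mer probes, with 3 arrays in each of 12 groups. A contig is a transcript assembled from olive sequence reads, and its value on an array is 1 normalized intensity on a linear scale, with no unit. For each contig, a score was taken on the log2 scale as the lowest of the 3 Arbosana arrays minus the highest of the 9 arrays of active Picual, Arbequina and Chiquitita, which are called the low varieties here. Only the 33233 contigs with mean log2 levels of active Picual and Arbequina within 1 of each other were ranked, and the 100 largest scores were kept. The members were thus chosen by the measured intensities of these 12 arrays, which are given as a description with no test.

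The varieties were sampled as active shoot tips, each sample from a single individual, and carry the canopy labels Arbosana, Picual, Arbequina and Chiquitita. Chiquitita, a shrubby tree with a compact and weeping canopy, descends from a Picual x Arbequina cross. The seedling pools were also sampled as active shoot tips. ChiCa (Chiquitita-like canopy), BRAM (complex branching pattern) and BSi (simple branching pattern) came from a Chiquitita x Arbosana cross. SILe (short internode length), LILe (long internode length), SmaD (small trunk diameter) and LarD (large trunk diameter) came from Picual x Arbequina, as Chiquitita did. Dormant Picual shoot tips made up the last group. Adult trees grew in the field in Cordoba. The study gives the end of spring as the harvest time in its account of actively growing shoots, and its text does not describe the dormant tips. No treatment was applied to any group. Seedlings of a pool were chosen for their phenotype, so a pool is not a random sample of its cross. The 3 arrays of a pool came from separately harvested shoots of the same few seedlings. P-values within a cross therefore measure the spread between harvests. Of the SmaD arrays, replicates 2 and 3 carry a short internode label in another field, and they were used as SmaD by their titles.

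A difference between 2 grown varieties on a fixed probe can come from the amount of transcript or from how well the transcript matches the probe, and here these cannot be told apart. The shoot tip carries the apical meristem, which gives rise to leaves, internodes and side branches, and it rests when the bud is dormant. In seedlings of 2 varieties, a transcript whose level is set by the parent's own copy of the gene is usually found between the levels of the parents, while one that follows the state of the growing shoot need not be. The files pair no gene name with these contigs, so none of the 100 is given a function, and the shoot tips were not checked against marker genes. Of the 14 contigs that the study names as genes of interest, 0 were among the 100. The list holds only 100 of the 37449 contigs, so this count is not read as a result.

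Arrays of a group had Pearson's r of 0.947 to 0.992 over all contigs, apart from SILe replicate 3, which reached 0.839 and 0.842 with the other SILe arrays. The median log2 level over all contigs ran from 9.25 to 9.64 across the arrays. The counts and differences that rest on SILe are also given without SILe replicate 3 where they are tested or counted between pools.

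The 100 contigs lay at ordinary levels in Arbosana and at low levels elsewhere. Their median log2 level was 9.68 in Arbosana, against 7.71 in active Picual, 7.84 in Arbequina and 7.49 in Chiquitita, while the median of all contigs was 9.49, 9.53, 9.50 and 9.55 in these groups. The median fold between the Arbosana mean and the highest mean of the low varieties was 2.99, and it ran between 1.97 and 34.7. In 24 of the contigs, the lowest Arbosana array was over 2-fold above the highest array of the low varieties. At the end of the list stood Contig_11175, Contig_7316 and Contig_17232, with scores of 0.67 each. Outside it stood Contig_3789, Contig_39691 and Contig_10090, with scores of 0.66 each. No gap separates the members from the contigs that follow, and 1081 contigs had a score above 0.

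**Figure D1:**
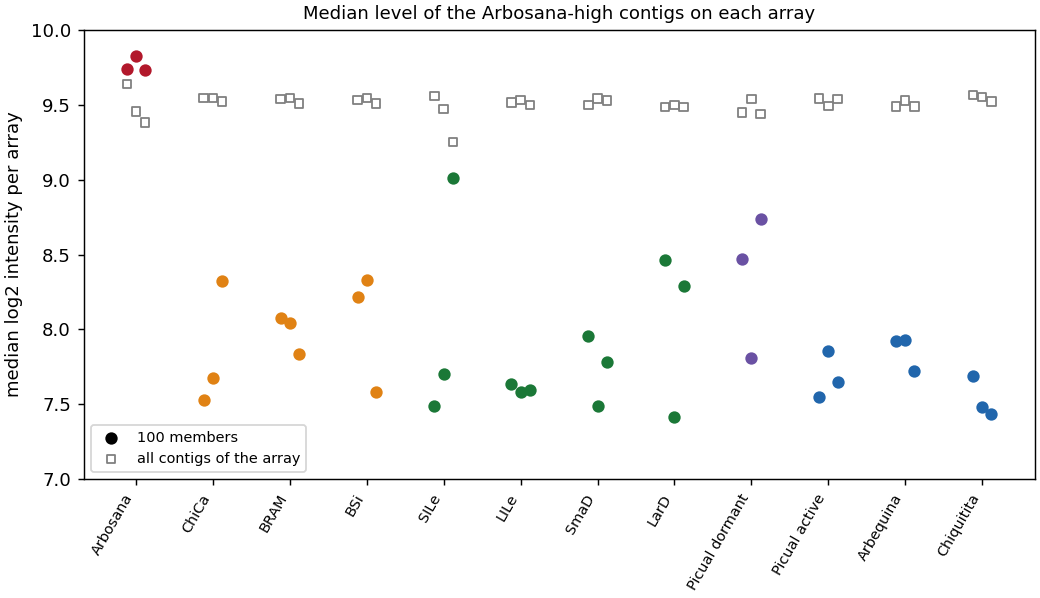
Median log2 intensity per array (vertical axis) in the 12 groups (horizontal axis, 3 arrays each). Filled circles give the 100 contigs high in Arbosana and open squares all 37449 contigs; the circles lie at 9.74 to 9.82 in Arbosana and between 7.41 and 9.01 on all other arrays, with SILe replicate 3 the highest of these.

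Contig_9751 had the largest score. It displayed intensities of 1315, 1246 and 632 in Arbosana, against 14.1, 9.89 and 11.5 in active Picual, 17.9, 13.8 and 18.3 in Arbequina and 99, 13.1 and 19.2 in Chiquitita. Chiquitita replicate 1 is well above the rest of the low varieties, so the score of 2.67 (6.38-fold) is set by that array. Contig_26231 followed, with 1258, 1451 and 883 in Arbosana, and its highest value in the low varieties was 190. Contig_49961 had 5397, 13677 and 5714 in Arbosana, and at most 1313 in the low varieties. These were the 3 contigs with a score over 4-fold.

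The other contigs among the 10 largest scores were steady in Arbosana in some cases and uneven in others. Contig_9948 (2903, 2199 and 2736 in Arbosana, at most 639 in the low varieties), Contig_20124 (5131, 7414 and 5799, at most 1662) and Contig_11449 (454, 489 and 586, at most 154) had similar values on all Arbosana arrays. In Contig_55058 and Contig_5125, replicate 3 of Arbosana stood far above the other 2 arrays. Contig_55058 had 316, 385 and 3757 in Arbosana, and at most 113 in the low varieties. Contig_5125 had 544, 476 and 2207 in Arbosana, and at most 171 in the low varieties. Contig_44546 was lowest in Arbosana replicate 1, with 2236, 10429 and 6770, and at most 701 in the low varieties. Contig_35762 completes the 10 and is described with the seedling pools.

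The choice of contigs depended on single arrays. When the list was chosen without Arbosana replicate 1, 2 or 3, the array left out lay above the highest array of the low varieties in 89, 90 and 74 of the 100 contigs chosen, and in 15.8%, 16.9% and 9.33% of all contigs ranked. The arrays of the low varieties still chose these lists and set the limit, so the counts are a description. Of the 100 contigs, 60, 69 and 44 were chosen again in these 3 cases, and 55 and 48 without active Picual replicates 2 and 3. The opposite list, contigs low in Arbosana alone, had larger scores: 97 contigs had their highest Arbosana array over 2-fold below the lowest array of the low varieties, against 24 here.

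**Figure D2:**
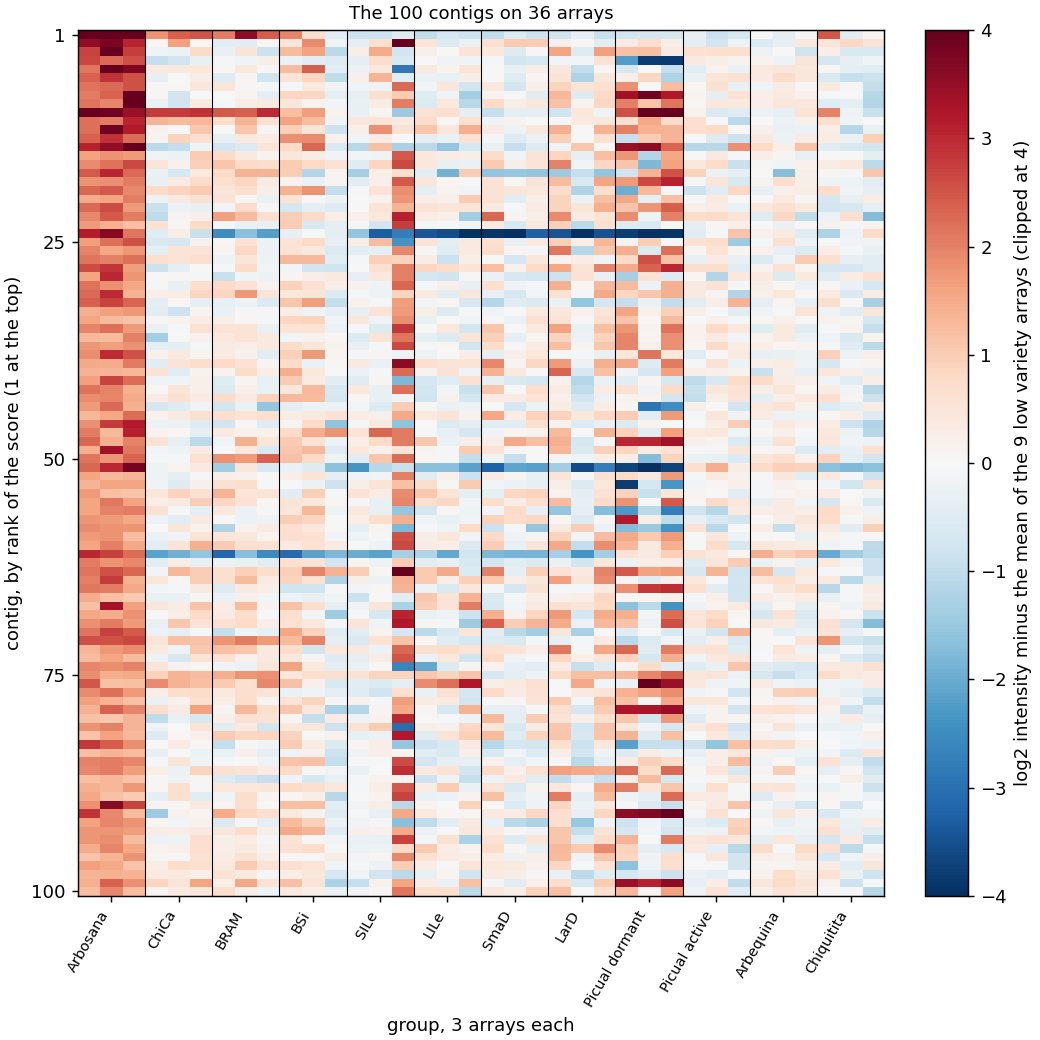
Log2 intensity minus the mean of the 9 arrays of the low varieties (colour, clipped at 4) for the 100 contigs (rows, by rank of the score) on the 36 arrays (columns, 3 per group). Arbosana is high in every row, as the rule requires, while most rows are near 0 in the seedling pools; SILe replicate 3 has the highest median of the other columns.

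In the 3 pools with Arbosana as a parent, most of the contigs lay nearer to Chiquitita, the other parent, than to Arbosana. The median log2 level of the 100 contigs was 7.86 in ChiCa, 8.02 in BRAM and 8.06 in BSi, against 9.68 in Arbosana and 7.49 in Chiquitita. A position was computed for each contig and pool, with 0 at the Chiquitita mean and 1 at the Arbosana mean on the log2 scale. The median position was 0.15 in ChiCa, 0.24 in BRAM and 0.19 in BSi. The pool mean was below the Chiquitita mean for 28 contigs in ChiCa, 24 in BRAM and 14 in BSi, so most lay above it. The medians of single arrays ran from 0.09 to 0.25 in ChiCa, from 0.14 to 0.34 in BRAM and from -0.08 to 0.40 in BSi, so the 3 pools overlapped. Because the rule took contigs with high Arbosana values and low Chiquitita values, the same arrays that set 0 and 1 chose the contigs, and the positions are a description.

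A position nearer to Arbosana was rare. It was displayed by 6 of the 100 contigs in ChiCa, 11 in BRAM and 3 in BSi. Of the 2237 other contigs with an Arbosana mean at least 2-fold above that of Chiquitita, 15.6%, 23.9% and 7.38% did so in these pools, and their median positions were 0.19, 0.28 and 0.19. These other contigs were not limited to low levels in Picual and Arbequina, so the shares are not a like comparison. For the 100 contigs low in Arbosana alone, on the same scale, the median positions were 0.15 in ChiCa, 0.15 in BRAM and 0.11 in BSi. Over the 3 pools, 83 of the contigs were nearer to Chiquitita in every pool, 14 were nearer to Arbosana in 1 pool, and 3 in 2 pools. None was nearer to Arbosana in all 3 pools. The 3 contigs were Contig_35762, Contig_31091 and Contig_68040, singled out after their values were seen.

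Seedlings with no Arbosana parent displayed similar positions. On the same scale, the medians were 0.33 in SILe, 0.06 in LILe, 0.15 in SmaD and 0.28 in LarD, with 24, 4, 7 and 22 contigs nearer to Arbosana, against 54.6%, 20.4%, 29.7% and 46.0% of the 2237 other contigs. The single SILe arrays ran from 0.04 to 0.80, and the highest of these was replicate 3. Without it, the SILe median was 0.09 and 2 contigs were nearer to Arbosana, against 23.0% of the other contigs.

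**Figure D3:**
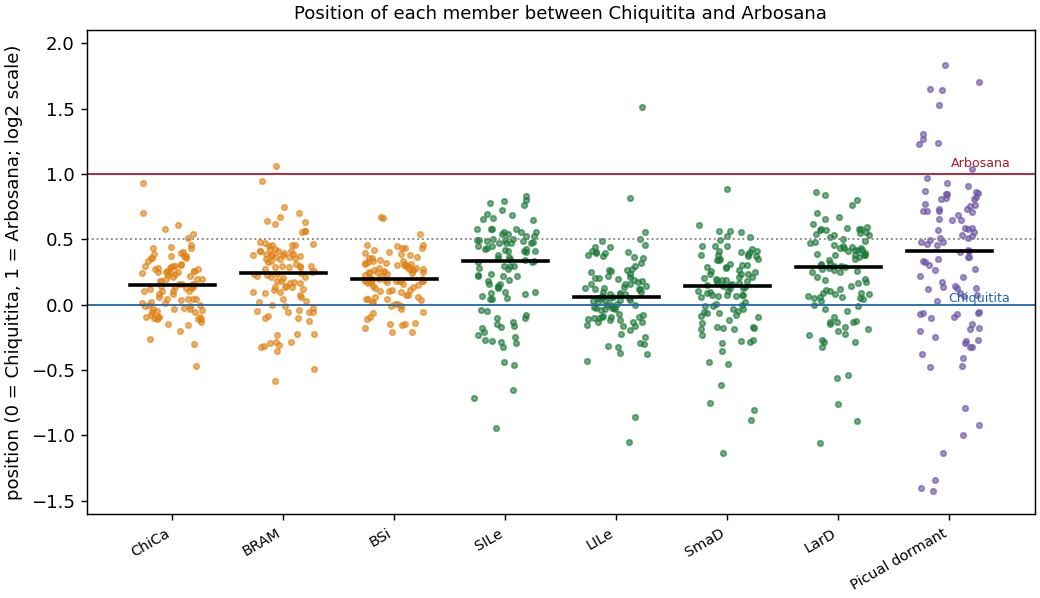
Position of each of the 100 contigs (points) between Chiquitita (0) and Arbosana (1) on the log2 scale (vertical axis) in the 7 seedling pools and dormant Picual (horizontal axis); black bars are medians and the dotted line is the midpoint. The Chiquitita x Arbosana pools (orange) have medians of 0.15 to 0.24, within the range of the Picual x Arbequina pools (green, 0.06 to 0.33; SILe is at 0.33, and at 0.09 without its replicate 3), and dormant Picual (violet) has the widest spread.

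Whether seedlings of Arbosana carried more of these transcripts than seedlings without Arbosana was tested on arrays that the rule did not use. The means of ChiCa, BRAM and BSi were compared with those of SILe, LILe, SmaD and LarD by limma over all contigs, with 1 value per pool, and calls needed a 2-fold difference and an adjusted p (Benjamini-Hochberg) below 0.05. The median log2 difference of the 100 contigs was -0.07, against 0.00 over all contigs, and 42 of 100 were higher in the Chiquitita x Arbosana pools, against 50.5% of all contigs. Without SILe replicate 3 the median was 0.09, against 0.01 over all contigs, and 59 of 100 were higher, against 51.8%. Of the 100 contigs, 5 were called higher in the Chiquitita x Arbosana pools, against 0.935% of all contigs, and 1 was called lower, against 1.03% of all contigs. In both directions together, 1.96% of the 37449 contigs were called. At an unadjusted p under 0.05 and at least 2-fold, 7 members passed, against 4.27% of all contigs. In 0 members did all 9 Chiquitita x Arbosana arrays lie above all 12 Picual x Arbequina arrays, against 0.214% of all contigs. The 2 crosses also differ in parents, seedlings and selected phenotypes, which cannot be told apart from the presence of an Arbosana parent.

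Contig_9751, the contig with the largest score, was also the member with the largest difference. Its intensities were 61.8, 93.5 and 102 in ChiCa, 73.5, 211 and 95.5 in BRAM, and 69.6, 28 and 13.1 in BSi, against 10.1, 10.1 and 12.7 in SILe, 9.03, 11 and 10 in LILe, 9.02, 12.2 and 9.98 in SmaD, and 10.2, 14.3 and 9.70 in LarD. All arrays of ChiCa and BRAM lay above every Picual x Arbequina array, while BSi replicate 3 overlapped them. The log2 difference was 2.63 ± 0.40 (SE, 3 pools against 4; 6.18-fold; limma adjusted p = 0.022). Dormant Picual had 10.8, 11.1 and 11.4, near the lowest values of the array, whose minimum was 6.74.

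Contig_35762 was intermediate in the same 2 pools. It had 655, 660 and 711 in ChiCa, 515, 496 and 751 in BRAM, and 219, 299 and 103 in BSi. The 12 Picual x Arbequina arrays lay between 34.5 and 148. ChiCa and BRAM were above all of these and BSi replicate 3 was not. The log2 difference was 2.40 ± 0.43 (limma adjusted p = 0.031). In the varieties it had 2015, 1390 and 1026 in Arbosana, against 374, 82.1 and 50.9 in Chiquitita, where replicate 1 was again the highest. Its positions were 0.70 in ChiCa, 0.64 in BRAM and 0.19 in BSi.

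Contig_11915 and Contig_36813 were lower in the Picual x Arbequina seedlings than in the parents of that cross. Contig_11915 had 269, 451 and 201 in ChiCa, 66.0, 118 and 80.9 in BRAM, and 298, 366 and 293 in BSi. It had 124, 37.8 and 55.9 in SILe and between 16.0 and 39.4 on the arrays of LILe, SmaD and LarD. Active Picual had 277, 356 and 817, and Arbequina 421, 494 and 266, so the seedlings lay below both varieties. The log2 difference between the crosses was 2.53 ± 0.49 (limma adjusted p = 0.036).

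Contig_36813 had 1380, 1724 and 2028 in ChiCa, 603, 2174 and 1054 in BRAM, and 1314, 1114 and 507 in BSi, against 135 to 853 on the Picual x Arbequina arrays. The log2 difference was 1.67 ± 0.32 (limma adjusted p = 0.034). Both parents of the second cross were higher than its seedlings, at 2539, 4386 and 1948 in active Picual and 2688, 3076 and 3000 in Arbequina, while Chiquitita had 506, 470 and 513.

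Contig_2343 was the last member called higher. It had 450, 701 and 677 in ChiCa, 1052, 1273 and 1000 in BRAM, and 739, 1204 and 236 in BSi, against 194 to 676 in the Picual x Arbequina pools. BRAM was above all of these arrays, while ChiCa and BSi overlapped them. The log2 difference was 1.36 ± 0.27 (limma adjusted p = 0.039). Arbosana had 1846, 1779 and 1952, and Chiquitita 1054, 184 and 166, so Chiquitita replicate 1 reached the level of BRAM.

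Contig_9978 was the member called lower. It had 320, 454 and 573 in ChiCa, 561, 993 and 539 in BRAM, and 536, 348 and 338 in BSi, against 593, 879 and 2362 in SILe, 1054, 978 and 845 in LILe, 1329, 659 and 1017 in SmaD, and 1690, 845 and 2322 in LarD. The log2 difference was -1.17 ± 0.23 (limma adjusted p = 0.037), and -1.03 without SILe replicate 3, where it was no longer called (limma adjusted p = 0.065). Arbosana had 3531, 4195 and 1857 and Chiquitita 362, 366 and 430, so the arrays of ChiCa and BSi lay near those of Chiquitita. Contig_18359 displayed nearly the same profile as Contig_9978 (r = 0.967 over the 24 arrays not used by the rule, named for that likeness). It was not called between the crosses, with a log2 difference of -0.84 ± 0.23 (limma adjusted p = 0.078).

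**Figure D4:**
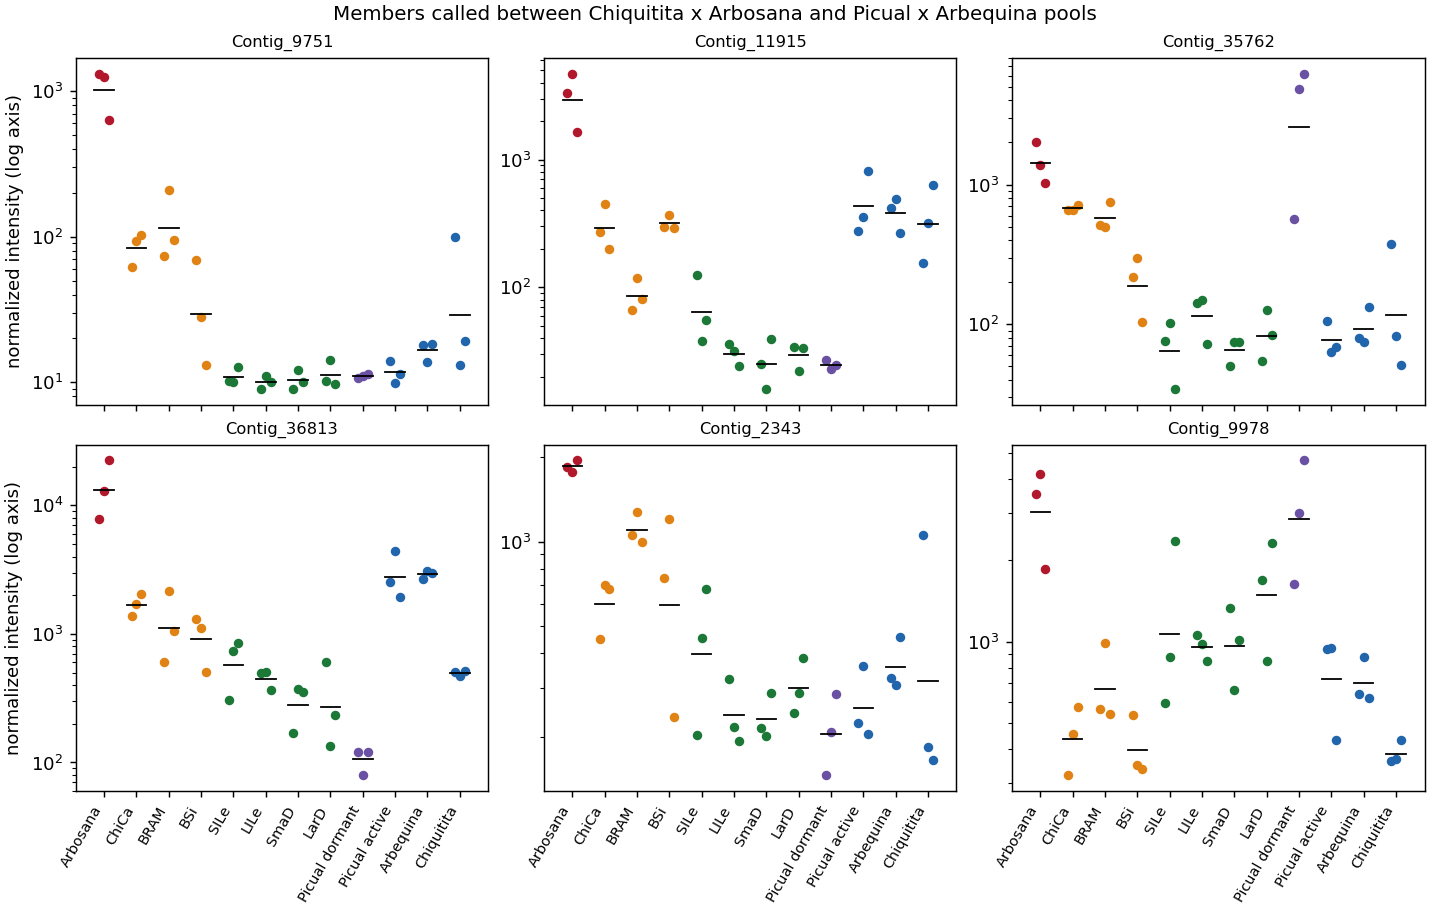
Normalized intensity (log axis) on each array (points) and group geometric mean (black lines) in the 12 groups (horizontal axis) for the 6 members called between the crosses. In Contig_9751, Contig_35762, Contig_36813 and Contig_2343, the means of ChiCa and BRAM lie between those of both parents. Chiquitita replicate 1 is above some of these arrays in Contig_9751 and Contig_2343. Contig_11915 and Contig_36813 are low in the Picual x Arbequina pools (green), and Contig_9978 is low in the Chiquitita x Arbosana pools (orange).

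Without SILe replicate 3, the log2 differences were 2.66 for Contig_9751, 2.50 for Contig_11915, 2.29 for Contig_35762, 1.75 for Contig_36813 and 1.45 for Contig_2343, all of them called (limma adjusted p = 0.016 to 0.032). The 6 calls rested on few pools. Without the pool ChiCa or the pool LarD, 0 of the 100 contigs were called. Contig_9751 also lost its call without BSi replicate 1 (limma adjusted p = 0.051), and Contig_11915 without SILe replicate 2 (0.081) or the pools BSi (0.12) or LILe (0.068). Contig_35762 did so without BSi replicate 2 (0.058), SILe replicates 1 (0.055) or 2 (0.053), or the pool BRAM (0.080). Contig_36813 did so without BSi replicates 1 (0.052) or 2 (0.053), SILe replicate 1 (0.098), or the pools BSi (0.073), BRAM (0.079) or LILe (0.054). Contig_2343 did so without ChiCa replicate 2 (0.053), BSi replicates 1 (0.054) or 2 (0.099), SILe replicates 1 (0.12) or 2 (0.058), LarD replicate 2 (0.051), or the pools BSi (0.086), BRAM (0.080) or LILe (0.073). Contig_9978 did so without BRAM replicates 1 (0.052) or 3 (0.056), any SILe array (0.059 to 0.065), SmaD replicate 1 (0.062), LarD replicate 2 (0.067), or the pools BSi (0.12), SILe (0.053) or LILe (0.057). The log2 differences of these contigs kept their signs without any single array or pool, in a range of 2.23 to 3.21 for Contig_9751 and of -1.40 to -1.03 for Contig_9978.

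A stricter pattern, with every array of a group above all 9 arrays of the low varieties, was displayed by few of the 100 contigs. It held for 5 contigs in ChiCa, 10 in BRAM and 1 in BSi, against 1.45%, 1.23% and 0.15% of all contigs. In dormant Picual it held for 18 contigs, against 7.19%. It held for 1 in SILe, 4 in LILe, 1 in SmaD and 4 in LarD, against 0.625%, 1.01%, 1.38% and 1.92%. The rule kept the arrays of the low varieties low for these contigs, so the higher shares in the list are not read further. In 88 contigs no Chiquitita x Arbosana pool was above the low varieties, in 8 contigs 1 pool was, and in 4 contigs 2 pools were, and 2.47% of all contigs had at least 1 such pool. The 4 contigs were Contig_35762, Contig_10413, Contig_31091 and Contig_68040, with ChiCa and BRAM as the raised pools each time.

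Contig_31091 was not particular to seedlings of Arbosana. It had 1324, 1778 and 1642 in ChiCa, 1921, 2387 and 2478 in BRAM, and 954, 1132 and 1093 in BSi, and LILe, with no Arbosana parent, had 1488, 1298 and 1556. SmaD was far lower, with 428, 531 and 605, against 1193, 1612 and 1625 in LarD, which is a log2 difference of -1.50 ± 0.22 (SE, n = 3 arrays each; limma adjusted p = 0.095). Without SILe replicate 3 in the same fit, an alternative added after the data were seen, it was called (limma adjusted p = 0.040). Contig_68040 was dim throughout, with 64.1, 44.8 and 39.8 in ChiCa and 35.6, 26.6 and 65.5 in BRAM. In SILe it had 12.7, 11.7 and 13.1, against 64.2, 79.2 and 159 in LILe, without overlap, and the log2 difference was -2.90 ± 0.43 (limma adjusted p = 0.080; 0.049 after quantile normalization). Contig_10413 had 77.9, 108 and 86.6 in ChiCa and 148, 79.6 and 81.5 in BRAM, against at most 72.0 in the low varieties.

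Between pools of the same cross, 0 of the 100 contigs were called by limma in any of 5 comparisons. These were ChiCa against BSi, ChiCa against BRAM and BRAM against BSi, with 0.0107%, 0.0668% and 0.0561% of all contigs called, and SILe against LILe and SmaD against LarD, with 0.0294% and 0.00801%. At an unadjusted p under 0.05 and at least 2-fold, 5, 6, 9, 7 and 5 members passed in this order, against 0.927%, 2.06%, 2.03%, 1.98% and 2.34% of all contigs. The methods' t-test, run here on log2 values, passed 2, 5, 5, 3 and 2 members at the same limits. The shares of all contigs were 0.489%, 1.60%, 1.04%, 0.681% and 2.71%. These counts are not those that the study reported. The median log2 difference of the members was -0.13, -0.06 and 0.03 within the first cross. In SILe against LILe it was 0.44, with 73 of 100 contigs higher in SILe, against 47.6% of all contigs. Without SILe replicate 3 it was 0.03, with 53 of 100 higher, against 52.1% of all contigs. In SmaD against LarD it was -0.29, with 23 of 100 contigs higher in SmaD, against 53.0% of all contigs. This count was 41 without LarD replicate 1, 35 without SmaD replicate 2 and 34 without LarD replicate 3, against 51.4%, 50.9% and 52.1% of all contigs. The medians were -0.17, -0.17 and -0.18 in these settings. Without SmaD replicate 1, SmaD replicate 3 or LarD replicate 2, the count was 20, 20 and 18, against 54.5%, 52.2% and 55.6%. The medians there were -0.42, -0.30 and -0.60.

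The contigs that varied most among the Chiquitita x Arbosana pools were Contig_9751, Contig_11915, Contig_35762, Contig_30503 and Contig_65497, with ranges of 1.95, 1.89, 1.84, 1.77 and 1.57 between the log2 pool means. Contig_30503 had 213, 216 and 352 in ChiCa, 790, 716 and 1133 in BRAM, and 497, 379 and 192 in BSi. BRAM did not overlap with the other pools of its cross and came near Arbosana (986, 746 and 1118), at a position of 0.94. Contig_65497 had 182, 201 and 335 in ChiCa, 228, 258 and 558 in BRAM, and 676, 1896 and 251 in BSi, so its pools overlapped and BSi was uneven.

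Arrays of the same pool differed for these contigs. Each array was set against the mean of the other 2 arrays of its group, which involves none of the arrays that chose the contigs. BSi replicate 3 was at least 2-fold below the other BSi arrays in 46 of the 100 contigs, against 4.51% of all contigs, and at least 2-fold above in 0, against 6.56%. LarD replicate 2 was 2-fold below in 48, against 5.26%, and above in 4, against 10.4%. SILe replicate 3 was 2-fold above in 61, against 17.2%, and below in 16, against 23.7%. In the other pools (ChiCa, BRAM, LILe and SmaD), no array was 2-fold above in more than 11 of the contigs, or 2-fold below in more than 11, and the shares of all contigs were at most 6.32% and 4.49%. The contigs were dimmer than most on these arrays, with a median percentile of 33.5 by mean level over the 24 arrays not used by the rule. The part of this level in the result was not tested.

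BSi replicate 3 was the lowest of its pool in 79 of the contigs, against 33.5% of all contigs. LarD replicate 2 was the lowest of its pool in 81, against 36.7%. Both held in 65 of the contigs, against 18.3% of all contigs. Each array alone was the lowest in most of the contigs, so the joint count is not read as a link between the 2 arrays. Contig_21923 and Contig_33211, the brightest of the 100 in the Picual x Arbequina pools, had low values on both arrays. Contig_21923 had 19216, 25419 and 3821 in BSi, 12307, 3176 and 11829 in LarD, and 6900, 10881 and 26852 in SILe. Contig_33211 had 37247, 33238 and 9114 in BSi, 28076, 6697 and 18751 in LarD, and 14919, 14741 and 37720 in SILe. In both, the high arrays of BSi and SILe came close to the lowest Arbosana array, and Arbosana had 35746, 40516 and 27776 for Contig_21923 and 44872, 44489 and 41690 for Contig_33211.

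Contig_20278, Contig_53154 and Contig_6363 were the next brightest in the Picual x Arbequina pools. They were lowest on BSi replicate 3 and LarD replicate 2 in part. Contig_20278 had 12814, 10225 and 4476 in BSi and 8282, 1877 and 4811 in LarD, with 4822, 5103 and 1669 in SILe. Contig_53154 had 3916, 4021 and 1569 in BSi, 6097, 1757 and 6335 in LarD, and 4398, 5866 and 350 in SILe, so SILe replicate 3 was the lowest there. Contig_49961, named for its score, displayed the same order, with 1983, 2540 and 398 in BSi, 2483, 586 and 2580 in LarD, and 1005, 2320 and 491 in SILe. Contig_20124, also named for its score, had 1413, 1813 and 490 in BSi and 1453, 419 and 1347 in LarD. Contig_44546, named in the same way, had 1209, 2641 and 375 in BSi and 691, 255 and 531 in LarD. Contig_6363 was not lowest on BSi replicate 3, with 1631, 1831 and 1861 in BSi, and had 2611, 1481 and 2597 in LarD.

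In other contigs a single SILe array was the outlying value. Contig_26231 had 81.4, 169 and 3512 in SILe, so replicate 3 was above all Arbosana arrays, and it lay between 72.9 and 398 in the other pools. Contig_11449 had 89.9, 91.6 and 481 in SILe, against at most 186 in the other pools, and Contig_5125 had 101, 152 and 518, against at most 280. Contig_17232, at the end of the list, had 92.7, 105 and 451 in SILe, against at most 232 in the other pools.

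Some contigs lay below Chiquitita in the pools of its cross with Arbosana. The lowest were Contig_10439, Contig_11915, Contig_6363, Contig_12698 and Contig_26231, with mean log2 differences from Chiquitita of -0.74, -0.66, -0.31, -0.29 and -0.26. Contig_10439 had 104, 119 and 151 in ChiCa, 51.7, 140 and 77.3 in BRAM, and 53.6, 102 and 130 in BSi, against 3687, 3014 and 2140 in Arbosana and 114, 173 and 216 in Chiquitita. The Picual x Arbequina pools were as low, between 87.4 and 261, although active Picual had 672, 579 and 477 and Arbequina 1242, 868 and 970. All 21 pool arrays thus lay below all arrays of Arbosana, Picual and Arbequina, and Chiquitita had the level of the seedlings. Contig_12698 was dim, with 17.8 to 35.1 in the Chiquitita x Arbosana pools, against 76.7, 83.2 and 73.6 in Arbosana and 32.7, 39.0 and 24.1 in Chiquitita.

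Dormant Picual had the highest median position of the groups other than Arbosana, with 0.41, against 0.10 in active Picual. Its single arrays ran from 0.14 to 0.58. Replicate 2 was at least 2-fold below the other dormant arrays in 32 of the contigs, against 4.79% of all contigs, and replicate 3 at least 2-fold above in 26, against 5.00%. Nearer to Arbosana were 44 contigs in dormant Picual, against 1 in active Picual, while 59.1% and 23.5% of the 2237 other contigs were nearer to it in these groups. The other contigs were not limited to low levels in active Picual. The median log2 difference between dormant and active Picual was 0.59, against 0.00 over all contigs. At least 2-fold higher in the dormant tips were 28 of the contigs, against 6.99% of all contigs, and at least 2-fold lower were 10, against 13.5%. Every dormant array was above every active one in 22, against 14.4%, and below in 8, against 14.8%. The rule took contigs low in active Picual, so these counts were not tested and are not read as a response to dormancy. In 10 of the contigs the dormant mean was above the Arbosana mean, against 52.0% of all contigs. The rule also took contigs high in Arbosana, so the lower share comes with the choice and is not read further.

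Contig_35762 had the largest log2 difference between dormant and active Picual among the 100, with 564, 4812 and 6195 in dormant Picual, against 105, 63.6 and 69.1 in active Picual. Replicates 2 and 3 were above all Arbosana arrays. Contig_5101 had 674, 727 and 1432 in dormant Picual, against 52.8, 84.1 and 55.7 in active Picual, while Arbosana had 417, 213 and 135. It lay between 20.7 and 161 in the seedling pools. Contig_7316 had 6801, 5321 and 7511 in dormant Picual, against 500, 757 and 320 in active Picual, and Arbosana had 1701, 3260 and 2237. Contig_6755 displayed values close to those of Contig_7316 (r = 0.994 and a median distance of 0.10 on the log2 scale over the 24 arrays not used by the rule, with a largest distance of 0.39 over all 36 arrays). Contig_55058 had 771, 1115 and 701 in dormant Picual, against 81.2, 58.6 and 113 in active Picual. Contig_65497 had 4348, 4621 and 1943, against 174, 181 and 1362.

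The opposite order was found for 3 contigs with large differences. Contig_36813 had 121, 79.5 and 121 in dormant Picual, against 2539, 4386 and 1948 in active Picual. Contig_11915 had 26.8, 23.0 and 24.5 in dormant Picual, which is the level of LILe, SmaD and LarD, against 277, 356 and 817 in active Picual. Contig_9948 had 97.7, 32.7 and 31.9 in dormant Picual, against 582, 538 and 505 in active Picual, and lay between 240 and 750 in all seedling pools. The groups did not overlap in these 3 contigs.

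**Figure D5:**
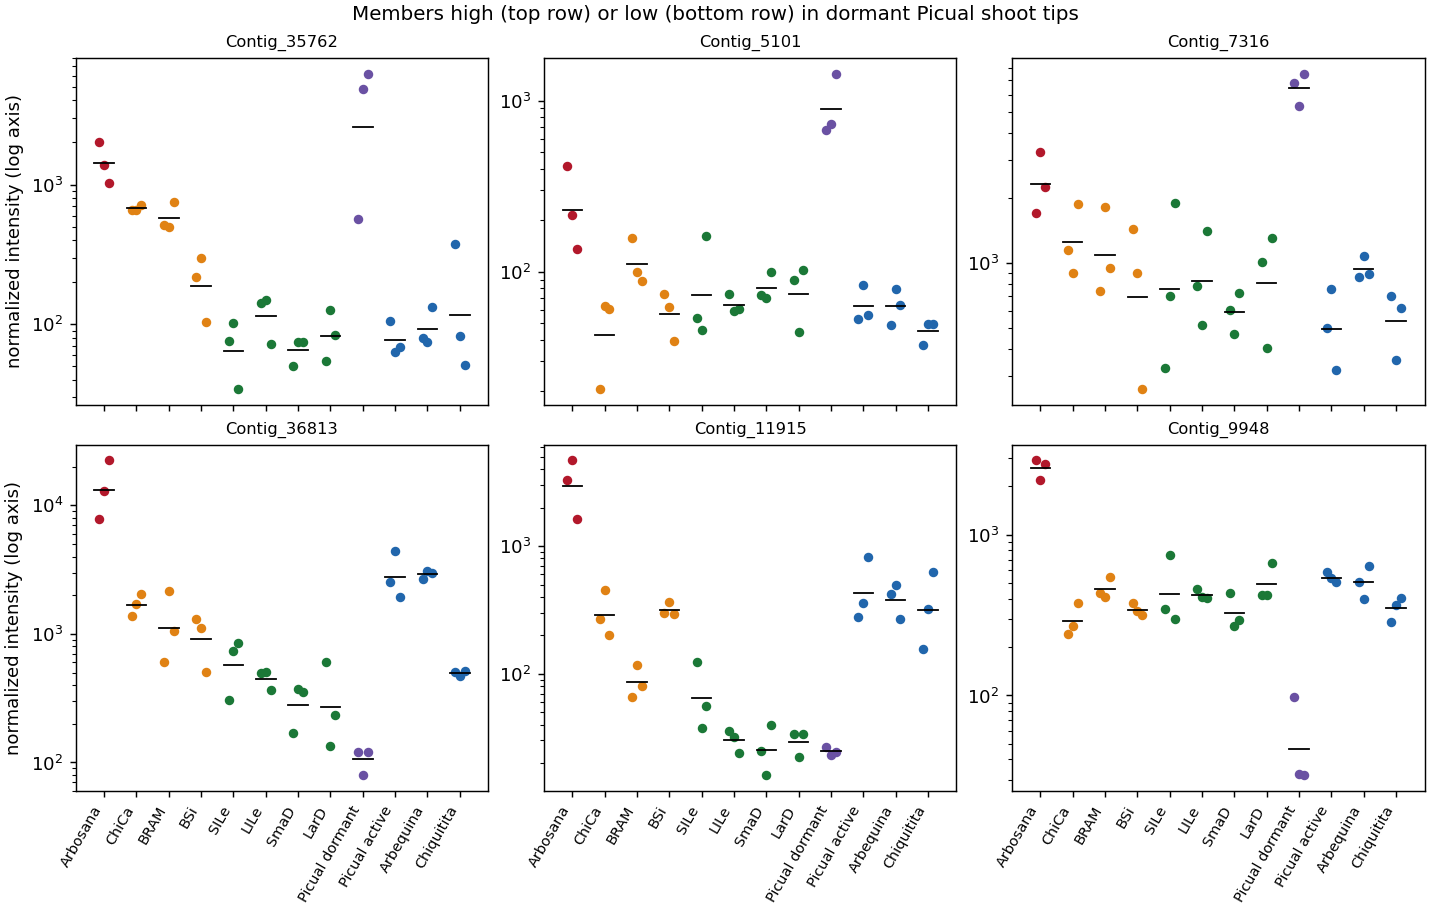
Normalized intensity (log axis) on each array (points) and group geometric mean (black lines) in the 12 groups (horizontal axis) for 3 contigs high in dormant Picual (top row) and 3 low in dormant Picual (bottom row). In the top row the mean of dormant Picual is above that of Arbosana, and in the bottom row it lies below all arrays of active Picual.

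The 100 contigs did not all share 1 profile outside the varieties, although some of them varied together. Over the 24 arrays not used by the rule, the median Pearson's r between 2 of them was 0.18, and 3 of the 4950 pairs had r above 0.95: Contig_6755 with Contig_7316, Contig_18359 with Contig_9978, and Contig_25797 with Contig_5088. Contig_25797 also had r of 0.92 to 0.93 with Contig_14542, Contig_56, Contig_53828, Contig_4217 and Contig_65129. Many of the contigs also shifted the same way on BSi replicate 3, LarD replicate 2 and SILe replicate 3, as given above. The median r was not computed for other contigs, so 0.18 has no value to be set against. These values share their arrays and harvests and are a description.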

How the data were processed

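The authors hybridized Cy3-labelled cDNA from shoot tips to the arrays; the submitters' processing notes name RMA, with no version stated. The deposited table holds normalized intensities on a linear scale, and log2 was taken here. A second deposited table with 36 columns could not be mapped to samples and was not used, so background was not examined. Arrays have no read depth; the number of arrays limits the precision. Sample groups followed the titles.

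The members and lists were chosen with earlier results of these data known. Contigs were named as the 10 largest scores, all called between the crosses, the 5 brightest in the Picual x Arbequina pools, the 5 with the widest range among the Chiquitita x Arbosana pools, the 5 lowest there relative to Chiquitita, the 3 highest in dormant against active Picual, and those at the end of the list. Others were named after their values were seen.

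Fits used limma 3.58.1 (lmFit, eBayes) in R 4.3.3 and were tested on simulated data. The crosses were compared on 7 pool means, and pools within a cross in a fit of their 9 or 12 arrays, with Benjamini-Hochberg adjustment over all contigs and no filter. Figures used Python 3.11.15 and matplotlib 3.10.9. Alternatives were the array as unit, other samples in the fit, the replicate number as a block, other normalizations, the lowest 25% left out, and arrays or pools left out. The methods' t-test was a further alternative, run on log2 values and, between the crosses, on the pool means.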

Additional observations from a re-analysis of the deposited data

Results flagged for a closer look

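Among 27 named contigs, the means of the 4 Picual x Arbequina pools were examined for a pool far from the other 3, and chance flags about 1 in 20 such groups. In Contig_20124 the SILe mean was 10.34 on the log2 scale, against 9.82 to 9.87 in the other 3 pools. Its SILe arrays were 1154, 2566 and 737, so replicate 2 holds the high value and the arrays overlap those of LarD (1453, 419 and 1347).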

How the results depend on the processing

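Of the 100 contigs, 80 were chosen again after quantile normalization, 81 after median centring, 87 with no limit on Picual against Arbequina, 73 when the dimmest 25% were left out and 52 when group means were scored; without single arrays the count ran from 44 to 98. Between the crosses, the members called were 7 with the array as unit and 7 with the replicate block added, 0 by the methods' t-test with Benjamini-Hochberg, and 0 to 6 without single arrays or pools (0 without ChiCa or LarD, 2 without BSi or LILe, 3 without BRAM). The contigs called there were 735, and 1181 with the array as unit, 1258 with the replicate block, 1282 by the methods' t-test unadjusted and 45 adjusted, 1452 with no fold minimum, and 46 to 1552 without single arrays or pools (46 without ChiCa, 231 without BSi, 346 without BRAM, 1552 without SmaD, 126 without LarD, 318 and 324 without SILe replicates 2 and 1, 402 without BSi replicate 2). The medians of the members' differences without single arrays or pools ran from -0.18 to 0.09.

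Within a cross, 0 members were called under the replicate block in any of the 5 comparisons. Replicate numbers were not treated as pairs: same-numbered arrays correlated in their deviations from -0.48 to 0.49, above 0.1 in 4 of 15 cases. Contigs called were 4, 25, 21, 11 and 3 in ChiCa against BSi, ChiCa against BRAM, BRAM against BSi, SILe against LILe and SmaD against LarD, and 7, 13, 5, 8 and 0 with the replicate block. On the 6 arrays alone they were 2, 41, 5, 2 and 1; in 1 fit over 36 arrays 35 in BRAM against BSi, 26 in SILe against LILe and 21 in SmaD against LarD; by the methods' t-test 183, 600, 388, 255 and 1015 unadjusted and 0 adjusted. Without the lowest 25%, they were 7 in SILe against LILe and 0 in SmaD against LarD, and 0 in SmaD against LarD after median centring. Without single arrays they ran from 1 to 12, 7 to 23, 3 to 134, 5 to 12 and 0 to 39. The members called by the methods' t-test were 2, 5, 5, 3 and 2 unadjusted and 0 adjusted. By limma they were 1 in SILe against LILe in the fit over 36 arrays (Contig_64984) and 1 after quantile normalization (Contig_68040), 1 in SmaD against LarD in the fit over 36 arrays and without SILe replicate 3 (an alternative chosen after seeing the data; Contig_31091 both times, 0 to 1 without single arrays), and 2 in BRAM against BSi without BSi replicate 3 (Contig_20278 and Contig_26852; 0 to 2). The medians of the members' differences without single arrays ran from -0.35 to 0.04, -0.16 to 0.06, -0.24 to 0.18, 0.03 to 0.79 and -0.60 to -0.17.

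With the group mean in place of the lowest array, 53 members were above the low varieties in dormant Picual, against 17.7% of all contigs. There were 12 in ChiCa, 26 in BRAM and 12 in BSi, against 5.09%, 5.17% and 1.37%. In SILe, LILe, SmaD and LarD there were 45, 11, 15 and 42, against 8.75%, 5.00%, 4.65% and 7.96%. With the lowest array after quantile normalization, there were 0 in SILe and 2 in SmaD, against 0.732% and 1.57%. Without SILe replicate 3 there was 1 in SILe, against 1.07%. The rule kept the low varieties low, so these shares are not read further. On linear intensities the median positions were 0.049 in ChiCa, 0.114 in BRAM and 0.12 in BSi, and without single arrays they ran from 0.10 to 0.20, 0.18 to 0.29 and 0.12 to 0.35 on the log2 scale. The median position in SILe was 0.093 without its replicate 3, chosen after seeing the data. The cause of these changes was not tested. The number of arrays, and the scanner background that was not analysed here, limit what dim contigs such as Contig_9751 and Contig_12698 can show.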
